A study of Homo sapiens with 16 samples.

Results

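The immediate early response genes IER2, IER3, IER5 and IER5L were followed in Caco-2 cells, a human colon carcinoma line, on arrays. All probes that the array names for these genes were taken, which gave 4 of 18841 named genes and 6 of 41000 probes. The cells were undifferentiated when they were stimulated for 6 h in minimum essential medium with 1% fetal calf serum. PT-G cells received gliadin, the wheat storage protein, digested with pepsin and trypsin. PT cells received the blank digest, in which the same enzymes were processed without a substrate. Both digests were heated to inactivate the enzymes. The p31-43 cells received 150 µg/ml of that synthetic gliadin peptide, and MED-CTL cells stayed in the medium alone. Each condition had 4 arrays from independent experiments, and cells of every condition were detached with trypsin-EDTA before RNA extraction. The genes were selected on the deposited log2 values of these conditions, with their levels already known, so their differences between conditions are given as a description without a test.

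Immediate early genes are transcribed within minutes of a growth factor, stress or protease signal, without new protein synthesis, and their short-lived mRNAs usually fade again within hours. IER3, also called IEX-1, encodes a stress-inducible protein that acts on cell survival and ERK signalling and is a known target of NF-kB and p53. IER2, IER5 and IER5L belong to a family of nuclear proteins that share an N-terminal region. IER5 is known to bind protein phosphatase PP2A together with the heat shock factor HSF1 and is itself induced by HSF1, whereas less is known about IER5L.

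The stretches directly before the transcription starts are shown because IER5 and IER5L share letters there that IER2 lacks. The windows of 250 bases come from RefSeq on GRCh38.p14 and lie at chr19:13150161-13150410 (plus strand) for IER2, chr1:181088450-181088699 (plus strand) for IER5 and chr9:129178262-129178511 (minus strand) for IER5L, and 3 of the 4 genes had a window. Capitals mark matches, on either strand, to CCAAT and to GAANNTTC, a pair of heat shock element units.
IER2: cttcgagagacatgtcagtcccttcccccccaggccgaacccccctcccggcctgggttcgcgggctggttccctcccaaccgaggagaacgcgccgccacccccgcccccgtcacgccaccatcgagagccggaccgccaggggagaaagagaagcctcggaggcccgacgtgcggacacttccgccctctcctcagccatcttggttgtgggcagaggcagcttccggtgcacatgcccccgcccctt
IER5: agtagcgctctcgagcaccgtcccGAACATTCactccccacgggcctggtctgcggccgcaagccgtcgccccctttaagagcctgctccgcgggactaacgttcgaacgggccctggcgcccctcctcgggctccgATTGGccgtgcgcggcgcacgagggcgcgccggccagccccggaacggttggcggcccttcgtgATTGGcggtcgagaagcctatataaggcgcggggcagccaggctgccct
IER5L: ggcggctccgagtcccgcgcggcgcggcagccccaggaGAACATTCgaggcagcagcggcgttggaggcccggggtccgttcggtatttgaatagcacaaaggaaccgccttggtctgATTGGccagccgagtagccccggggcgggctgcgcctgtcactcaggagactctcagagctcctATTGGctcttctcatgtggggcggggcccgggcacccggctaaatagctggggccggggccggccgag
IER5 and IER5L each had 1 match to GAANNTTC, with the same letters GAACATTC, at −226 and −212 from the start. Of 35116 such windows in RefSeq, 5.78% held this motif. Each of the same genes also had 2 CCAAT matches, and in both the first bases of the 2 matches were 64 bases apart. CCAAT was found in 32% of all windows. IER2 had no match to either motif and had 3 matches to the GC box GGGCGG, which IER5L matched 2 times and which 42.6% of all windows held. No window of the 3 genes matched the CArG box bound by SRF (1.16% of all windows), the AP-1 site TGANTCA (6.57%), the cAMP response element TGACGTCA (1.65%) or TATAAA (10.7%), which says only that these letters are not in these windows.

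Signal stood clear of background on every array. The median intensity lay between 153 and 410 over a background of 48 to 65. Of 43376 spots other than controls, 27660 to 33947 were well above background. The 16 arrays lay on 5 slides and in 4 runs with 1 array of each condition, of which the 2 earlier and the 2 later ones are set against each other below. Slide 3 held replicate 3 of MED-CTL, p31-43 and PT-G, and no PT array. On that slide, 6.3% of all probes were lower and 8.37% higher than on every other array. Of the epithelial and intestinal markers fixed for Caco-2, 11 of 12 were well above background on every array, while the leukocyte marker PTPRC and the endothelial marker CDH5 were so on none. Of the markers of these types, 3 of 5 leukocyte and 2 of 3 endothelial ones were well above background on every array, as were 3 of 5 fibroblast markers. Fewer cells and less RNA per cell cannot be told apart in such bulk samples.

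All 6 probes were well above background on all 16 arrays and none was saturated. IER2 and IER5 each had 2 probes, and the brighter one leads here. Levels are log2 intensities after normalization between arrays, and levels of different probes are not comparable with each other. Every difference from MED-CTL given here rests on the same MED-CTL arrays. The SEs of differences between conditions come from a fit of the conditions alone, without the runs as a block.

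**Figure D1:**
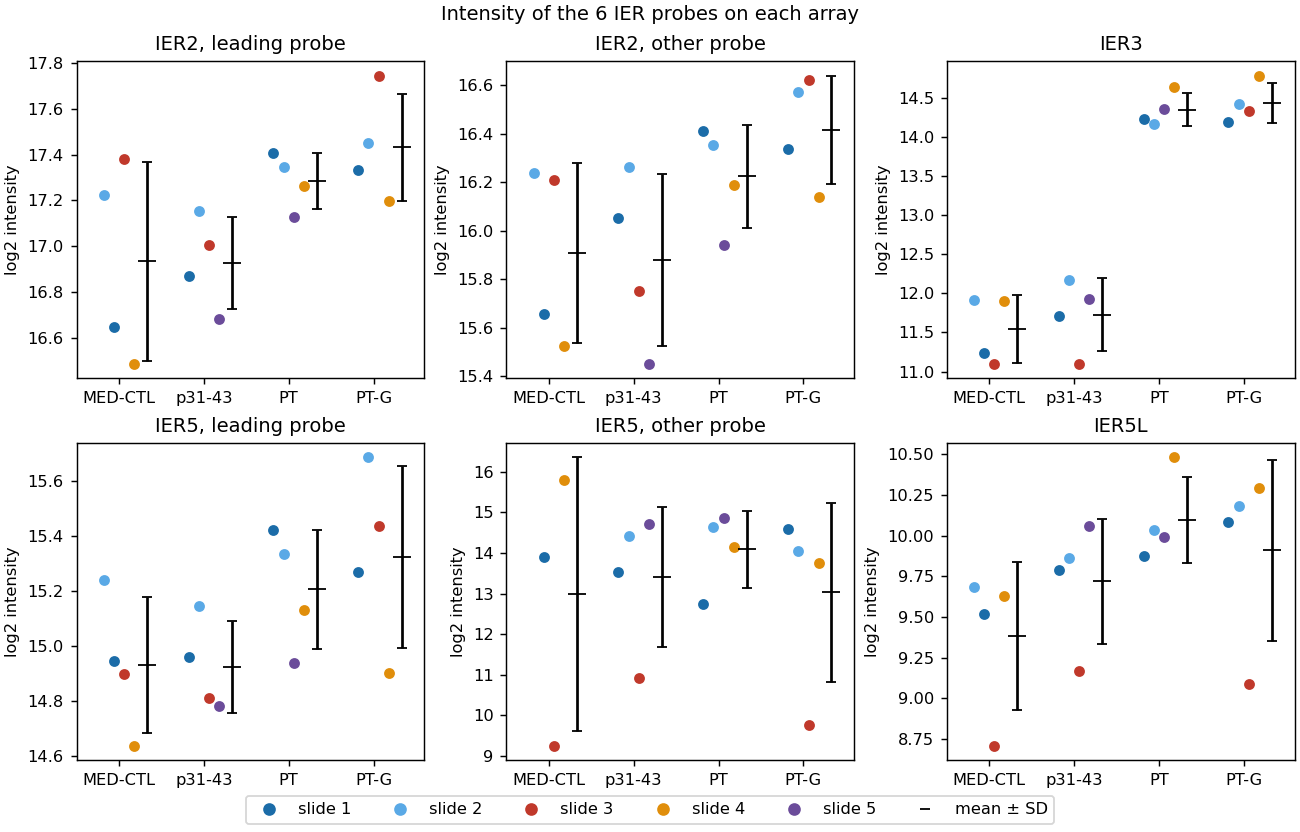
Log2 intensity (vertical axes, 1 scale per panel) of the 6 IER probes on each array by condition. Points are arrays coloured by slide, in the order of the replicate numbers, and bars give mean ± SD (n = 4, or 3 for MED-CTL of the other IER5 probe). The PT and PT-G arrays of IER3 all lie at 14.17 or higher and all other IER3 arrays at 12.17 or lower, whereas in the other panels both digests overlap with MED-CTL, except for PT in IER5L.

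IER3 stood at 2 levels, a low one without a digest and a high one with either digest. On the MED-CTL arrays its log2 intensity was 11.92, 11.24, 11.10 and 11.91 in replicates 1 to 4. On the p31-43 arrays it was 11.72, 12.17, 11.10 and 11.93. These ranges overlapped and both had their lowest array on slide 3. On the PT arrays IER3 read 14.23, 14.17, 14.36 and 14.64. On the PT-G arrays it read 14.19, 14.43, 14.33 and 14.79. The lowest array with a digest lay far above the highest array without one, and the 2 digests overlapped. Of all probes, 2.01% lay on every PT-G array above every MED-CTL array, and 2.36% did so for PT.

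The mean of IER3 was 14.43 ± 0.26 (SD, n = 4) under PT-G and 11.54 ± 0.43 (SD, n = 4) in MED-CTL, a log2 difference of 2.89 (SE 0.24) or 7.42-fold. Under PT it was 14.35 ± 0.21 (SD, n = 4), which was 2.81 above MED-CTL or 7.0-fold. Among 40982 probes ranked from the largest increase, IER3 was number 3 for PT-G and number 2 for PT. Within the 4 runs, the difference lay between 2.50 and 3.23 for PT-G and between 2.25 and 3.26 for PT. Every run showed it, and without the arrays of slide 3 it was 2.78 and 2.66. With PT subtracted, PT-G was higher by 0.08 (SE 0.24), with 2 runs above 0 and 2 below. The p31-43 mean of 11.73 ± 0.46 (SD, n = 4) was 0.19 (SE 0.24) above MED-CTL, with 3 of 4 runs above 0 and the highest at 0.47. In order of level, PT-G and PT were neighbours that did not differ beyond their spread, as were p31-43 and MED-CTL.

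IER2, a nuclear protein of the family, was the brightest spot of the 6 and rose less than IER3 under either digest. Among 40982 probes ranked from the largest increase, its leading probe was number 1017 for PT-G and number 3086 for PT. Its leading probe read 17.22, 16.65, 17.38 and 16.48 on the MED-CTL arrays, in the order of replicates. It read 16.87, 17.15, 17.01 and 16.68 on the p31-43 arrays. The PT arrays gave 17.41, 17.34, 17.13 and 17.26, and the PT-G arrays 17.33, 17.45, 17.75 and 17.20. Both digests overlapped with MED-CTL, and 2 of the MED-CTL arrays lay below every array of either digest.

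The IER2 mean was 17.43 ± 0.23 (SD, n = 4) under PT-G and 16.93 ± 0.43 (SD, n = 4) in MED-CTL, a difference of 0.50 (SE 0.18) or 1.41-fold. It was positive in 4 of 4 runs, from 0.23 to 0.71. For PT the difference was 0.35 (SE 0.18) and was positive in 3 of 4 runs, from −0.25 to 0.78. The negative value came from run 3, in which the MED-CTL array lay on slide 3 and the PT array on slide 5. Without MED-CTL replicate 4, the lowest array, the mean difference was 0.20. In the 3 slides that held both conditions, PT lay above MED-CTL by 0.12 to 0.78. For p31-43 the mean differed by −0.01, with runs on both sides of 0. The other IER2 probe, which starts 63 bases further downstream, gave 0.51 for PT-G, 0.32 for PT and −0.03 for p31-43. The 2 IER2 probes followed each other over the 16 arrays with a Pearson r of 0.932.

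IER5, the HSF1 and PP2A partner, behaved much like IER2 on its leading probe. The MED-CTL arrays read 15.24, 14.94, 14.90 and 14.64, and the p31-43 arrays 14.96, 15.15, 14.81 and 14.78. The PT arrays read 15.42, 15.34, 14.94 and 15.13. The PT-G arrays read 15.27, 15.69, 15.44 and 14.90. All 4 conditions overlapped, and replicate 4 was the lowest array of every condition but PT.

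Under PT-G the IER5 mean was 15.32 ± 0.33 (SD, n = 4) against 14.93 ± 0.25 (SD, n = 4) in MED-CTL, a difference of 0.39 (SE 0.17) or 1.31-fold. The difference was positive in 4 of 4 runs, from 0.26 to 0.54. For PT it was 0.28 (SE 0.17), again positive in 4 of 4 runs, from 0.04 to 0.49, and 0.18 without MED-CTL replicate 4. For p31-43 it was −0.01 (SE 0.17), with 2 runs above 0 and 2 below.

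The other IER5 probe, which starts 1091 bases further upstream by the array annotation, did not follow the leading one. Over the 15 arrays on which both were measured, the 2 probes had a Pearson r of −0.112. Its log2 intensity was 13.91, 9.25 and 15.81 on MED-CTL replicates 2 to 4, with replicate 1 marked as an outlier spot and left out. The p31-43 arrays read 13.53, 14.41, 10.92 and 14.72. The PT arrays read 12.74, 14.64, 14.85 and 14.14, and the PT-G arrays 14.58, 14.05, 9.76 and 13.75. The 3 low values of this probe were the 3 arrays of slide 3, and the other 12 arrays lay between 12.74 and 15.81.

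The mean of that probe was 13.04 ± 2.21 (SD, n = 4) under PT-G and 12.99 ± 3.37 (SD, n = 3) in MED-CTL, so its difference of 0.05 had an SE of 1.49. For PT the difference was 1.10 with all arrays and −0.77 without slide 3. For p31-43 it was 0.41 and −0.64. It gives no direction for IER5 in any condition, while the leading probe differed by 0.34 for PT-G and 0.27 for PT without slide 3.

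**Figure D2:**
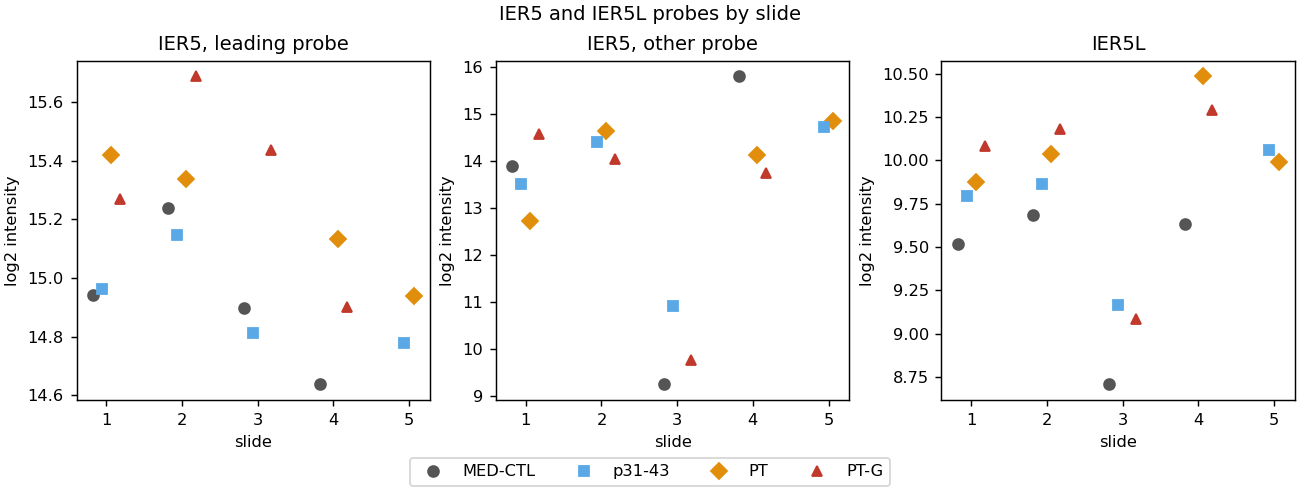
Log2 intensity (vertical axes) of the 2 IER5 probes and of IER5L by slide (horizontal axes), with 1 point per array and the condition shown by symbol. On slide 3 the other IER5 probe lies at 9.25 to 10.92 and IER5L at 8.71 to 9.17, below the arrays of all other slides, while the leading IER5 probe shows no such gap.

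IER5L, the relative of IER5, was the dimmest of the 6 spots, with raw intensities from 249 to 1753. It read 9.68, 9.52, 8.71 and 9.63 on the MED-CTL arrays. On the p31-43 arrays it read 9.79, 9.86, 9.17 and 10.06. The PT arrays gave 9.88, 10.04, 9.99 and 10.48, and the PT-G arrays 10.08, 10.18, 9.09 and 10.29. The PT arrays all lay above the MED-CTL arrays, by a gap of 0.19. Such a separation upwards was found for 2.36% of all probes. As for the other IER5 probe, the arrays of slide 3 were the lowest 3 of all, and no PT array was among them.

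The IER5L mean was 10.10 ± 0.27 (SD, n = 4) under PT against 9.38 ± 0.46 (SD, n = 4) in MED-CTL, a difference of 0.71 (SE 0.29) or 1.64-fold. The run differences lay between 0.35 and 1.28, and the highest was that of run 3, which set PT on slide 5 against MED-CTL on slide 3. Within the 3 slides holding both, PT was higher by 0.35 to 0.85. Without slide 3 the difference was 0.49 (SE 0.13). For PT-G the mean was 9.91 ± 0.56 (SD, n = 4) and the difference from MED-CTL 0.53 (SE 0.29), or 0.58 (SE 0.14) without slide 3. It was 0.30 without MED-CTL replicate 3 alone and 0.80 without PT-G replicate 3 alone. It was positive within all 4 slides that held both conditions, from 0.38 to 0.66. For p31-43 IER5L was 0.33 (SE 0.29) higher than in MED-CTL, positive in 4 of 4 runs from 0.18 to 0.46, but 0.11 without MED-CTL replicate 3 and 0.52 without p31-43 replicate 3. PT-G minus PT was −0.19 (SE 0.29) with all arrays and 0.09 (SE 0.13) without slide 3, so the order of the digests depended on these arrays.

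**Figure D3:**
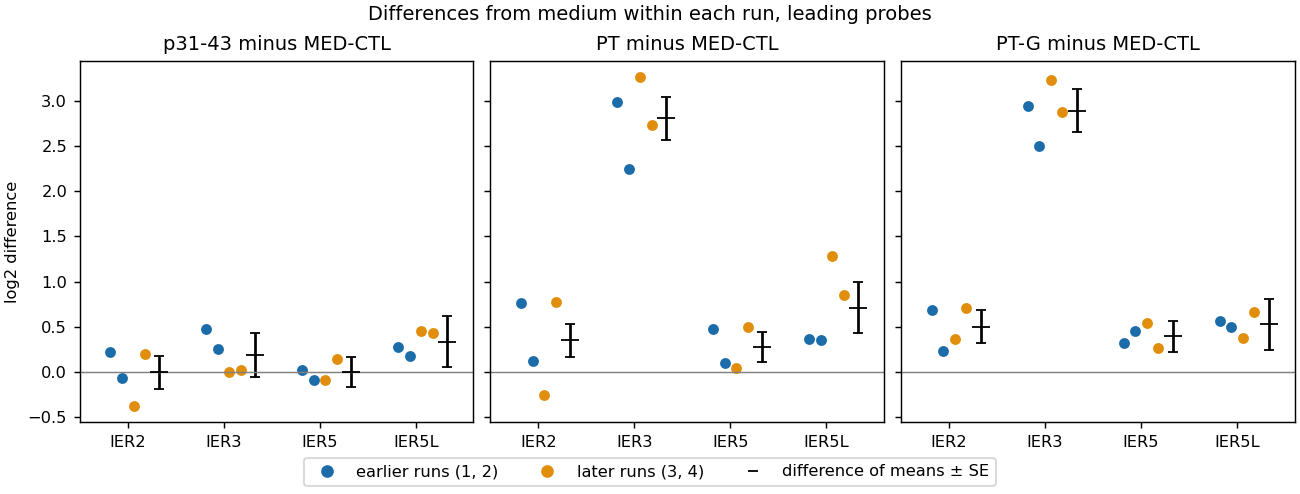
Log2 difference from MED-CTL (vertical axis) of the 4 leading probes within each run, for p31-43, PT and PT-G. Points are runs, coloured as earlier or later, and bars give the difference of means ± SE. The IER3 points lie between 2.25 and 3.26 for both digests, above all points of the other 3 genes, of which the highest is 1.28 for IER5L under PT.

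The runs allowed a test that the choice of the genes did not use. It set the 2 later against the 2 earlier runs and counted all 16 arrays as independent. Arrays of the same run tended to deviate together, so the SEs and p-values of this paragraph can be too small. The share of all probes that passed can likewise be too high. The leading IER5 probe was lower in the later runs by 0.31 on the log2 scale (15.25 to 14.94, SE 0.09, limma, adjusted p = 0.0188). This was 1 of the 6 probes, and 25.8% of all probes passed the same threshold. The difference was −0.27 (limma, adjusted p = 0.107) on background-subtracted signal and −0.32 (limma, adjusted p = 0.0634) after median scaling, past the threshold on neither. For IER2 it was −0.07 (limma, adjusted p = 0.749), or −0.28 (limma, adjusted p = 0.044) without slide 3. Its other probe gave −0.26 (limma, adjusted p = 0.162), or −0.43 (limma, adjusted p = 0.00895) without slide 3 and −0.34 (limma, adjusted p = 0.0448) without MED-CTL replicate 3. IER3 differed by 0.01 (limma, adjusted p = 0.975), IER5L by −0.20 (limma, adjusted p = 0.503) and the other IER5 probe by −1.04 (limma, adjusted p = 0.495). Without slide 3 the last 2 values turned to 0.19 (limma, adjusted p = 0.104) and 0.66 (limma, adjusted p = 0.234). The later runs also lay on other slides and scan days than the earlier ones, which cannot be told apart from the runs.

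Whether the effect of a digest differed between the later and the earlier runs was tested as an interaction. IER3 was 3.06 higher under PT-G in the later runs and 2.72 in the earlier ones (difference 0.33, SE 0.50, limma, adjusted p = 1). Under PT these values were 3.00 and 2.62 (difference 0.38, SE 0.50, limma, adjusted p = 0.998). The largest difference among the leading probes was that of IER5L under PT, 1.07 in the later and 0.36 in the earlier runs (difference 0.71, SE 0.59, limma, adjusted p = 0.998). None of the 6 probes passed for either digest, where 0.0659% of all probes passed for PT-G and 0.0854% for PT, and no member had an unadjusted p below 0.259.

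Among themselves the members formed no single pattern over the arrays, which share their runs and slides. The leading probes of IER2 and IER5 had a Pearson r of 0.782 (n = 16 arrays) and IER3 and IER5L one of 0.616. IER2 and IER5L had an r of −0.06. The highest r of IER5L with another member was 0.787, with the other IER5 probe (n = 15 arrays), and both had their low arrays on slide 3.

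Of 11858 other genes well above background on every array, those most alike to IER3 were ZNF143, a transcription factor (Pearson r = 0.978), MAP3K8, a kinase upstream of ERK (0.970), the cell cycle regulator SERTAD1 (0.961) and the RAS-ERK inhibitor SPRY4 (0.960), each over 16 arrays. For IER3 these values come from 2 clusters of arrays, and within the 8 digest arrays the same 4 genes had an r of 0.426, 0.605, 0.364 and −0.555, and within the 8 other arrays one of 0.446, 0.923, 0.827 and 0.677. The genes most alike to IER2 were the transcription factor NFATC1 (0.933), C8orf4 (0.929), C1orf55 (0.927) and IRS2 (0.917), an adaptor of insulin signalling. For IER5 they were PPP1R15A (0.942), which encodes a stress-inducible phosphatase subunit, FAM59A (0.939), MARK4 (0.920) and GNAZ (0.920). For IER5L they were PPME1 (0.979), the methylesterase of PP2A, C16orf61 (0.961), EEF1E1 (0.956) and DLL3 (0.948). Without slide 3, over 13 arrays, the last 4 values were 0.945, 0.924, 0.858 and 0.823.

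Lists of genes with related roles were set beside the members. These lists were also chosen with earlier results of these data known, so their counts and p-values only describe the same arrays. The list of 24 immediate early transcription factors also held SRF, which drives many such genes, and ELK1, ELK3 and ELK4. Of these 24, 12 rose, ELK4 among them, and none fell at the nominal p under 0.01 between PT-G and MED-CTL. The median log2 difference was 1.04, where the median of all probes was −0.01. Among the 12 that did not pass, FOS, FOSB, JUN and EGR1 differed by 1.01, 1.08, 0.87 and 0.75, and their PT-G arrays overlapped with MED-CTL. Between PT and MED-CTL 9 rose and none fell, with a median of 0.69. EGR4 rose by 2.99 under PT-G (SE 0.55, limma, adjusted p = 0.0179) and by 3.00 under PT (limma, adjusted p = 0.0202). For EGR3 the increase was 2.91 (SE 0.34, limma, adjusted p = 0.00136) and 2.59 (limma, adjusted p = 0.00335), with 3 of 4 MED-CTL arrays well above background. These 2 zinc finger factors had differences of the size of that of IER3. JUNB, an AP-1 subunit, rose by 1.78 under PT-G (SE 0.26, limma, adjusted p = 0.00489), and FOSL1, another one, by 1.73 under PT (SE 0.35, limma, adjusted p = 0.0364).

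Of 18 genes that feed back on ERK signalling, the pathway IER3 acts on, 10 rose and none fell under each digest, with medians of 0.75 for PT-G and 0.78 for PT. The ERK phosphatase DUSP5 rose by 1.83 under PT-G (SE 0.18, limma, adjusted p = 0.000334) and 1.65 under PT (limma, adjusted p = 0.000738). DUSP6, with the same role, rose by 1.59 (SE 0.24, limma, adjusted p = 0.00545) and 1.38 (limma, adjusted p = 0.0143). SPRY4 rose by 1.56 (SE 0.19, limma, adjusted p = 0.00136) and 1.68 (limma, adjusted p = 0.00108). MAPK3, which encodes an ERK kinase, differed by 0.00 under PT-G (SE 0.18, limma, adjusted p = 1).

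Targets of NF-kB and p53 were listed because IER3 is known as a target of both. Of 20 NF-kB targets, 5 rose under PT-G and 6 under PT, and none fell. The chemokine CCL20 rose by 1.32 under PT-G (SE 0.22, limma, adjusted p = 0.0115) and 1.14 under PT (limma, adjusted p = 0.0286). The NF-kB cofactor BCL3 rose by 0.76 under PT-G (SE 0.10, limma, adjusted p = 0.00228). CXCL8 was well above background on all 8 digest arrays and on no MED-CTL array, and was at least 1.72-fold higher under PT-G (limma, adjusted p = 0.0126) and at least 1.69-fold higher under PT (limma, adjusted p = 0.0172), as bounds against the MED-CTL spots' own signal. CXCL1 rose by 1.41 under PT at the nominal threshold (SE 0.45, limma, adjusted p = 0.240). Of 22 p53 targets, 5 rose and 2 fell under PT-G, and 4 rose and 1 fell under PT. The antiproliferative gene BTG2 rose by 1.04 under PT-G (SE 0.14, limma, adjusted p = 0.00267) and 0.93 under PT (limma, adjusted p = 0.00612). CDKN1A, the p21 inhibitor of the cell cycle, rose by 1.22 (SE 0.27, limma, adjusted p = 0.0464) and 1.34 (limma, adjusted p = 0.0315). PLK3, a stress kinase, rose by 1.41 (SE 0.32, limma, adjusted p = 0.055) and 1.21 (limma, adjusted p = 0.116) at the nominal threshold. The genes that fell under PT-G were SESN1, of the stress-inducible sestrins, and the DNA repair gene DDB2, of which SESN1 also fell under PT.

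The heat shock and PP2A lists stand beside IER5. Of 20 heat shock genes measured of 21 listed, 2 rose under PT-G and 3 under PT, and none fell, with medians of 0.10 and 0.08. HSPA6, a strictly inducible HSP70, rose by 1.37 under PT-G (SE 0.21, limma, adjusted p = 0.00725) and 1.53 under PT (limma, adjusted p = 0.00379). HSPA1A rose by 0.60 (SE 0.17, limma, adjusted p = 0.180) and 0.56 (limma, adjusted p = 0.228) at the nominal threshold. It has a near-identical copy, HSPA1B, which was not measured under its own name, so its value is uncertain. The HSP70 cochaperone DNAJB1 rose by 0.66 under PT (SE 0.15, limma, adjusted p = 0.0646). HSF1 itself differed by 0.21 under PT-G (SE 0.09, limma, adjusted p = 0.499) and 0.12 under PT (limma, adjusted p = 0.776). Of 17 PP2A subunits, none passed the nominal threshold under either digest in limma, and 1 had an unadjusted p under 0.05 in each comparison. Such a p in limma was found for 7.98% of all probes under PT-G and 8.98% under PT. PPP2CA, the catalytic subunit, differed by 0.04 under PT-G (SE 0.18, limma, adjusted p = 1).

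Of 14 genes of the BCL2 family and partners of IER3, 2 rose under PT-G and 3 under PT, and none fell. MCL1, the survival protein that IER3 binds, rose by 0.58 under PT-G (SE 0.09, limma, adjusted p = 0.00961) and by 0.47 under PT (SE 0.09, limma, adjusted p = 0.0366). BIK, a pro-apoptotic member, rose by 0.56 (SE 0.14, limma, adjusted p = 0.103) and 0.64 (limma, adjusted p = 0.0544), and BAD by 0.35 under PT (SE 0.11, limma, adjusted p = 0.244), both at the nominal threshold. IER3IP1, named as an interaction partner of IER3, differed by −0.23 under PT-G (SE 0.09, limma, adjusted p = 0.447). SRF, which drives many immediate early genes, differed by 0.15 under PT-G (SE 0.17, limma, adjusted p = 1) and 0.00 under PT (limma, unadjusted p = 0.991).

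Over all lists, 36 of 134 genes rose and 2 fell under PT-G, and 35 rose and 1 fell under PT. Of all probes, 3.44% passed the nominal threshold under PT-G (1.91% rose and 1.52% fell) and 3.64% under PT (1.8% rose and 1.84% fell). At an adjusted p under 0.05 in limma, 27 and 24 list genes rose and none fell, where 0.944% and 0.82% of all probes passed. No list gene passed the nominal threshold in limma between p31-43 and MED-CTL, where 0.388% of all probes did. At an unadjusted p under 0.05 in limma there were 2, beside 2.15% of all probes. With the replicate number as a block, 2 passed the nominal threshold. Between PT-G and PT none passed the nominal threshold, beside 0.0903% of all probes. There 0 had an unadjusted p under 0.05 in limma, beside 0.781% of all probes.

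**Figure D4:**
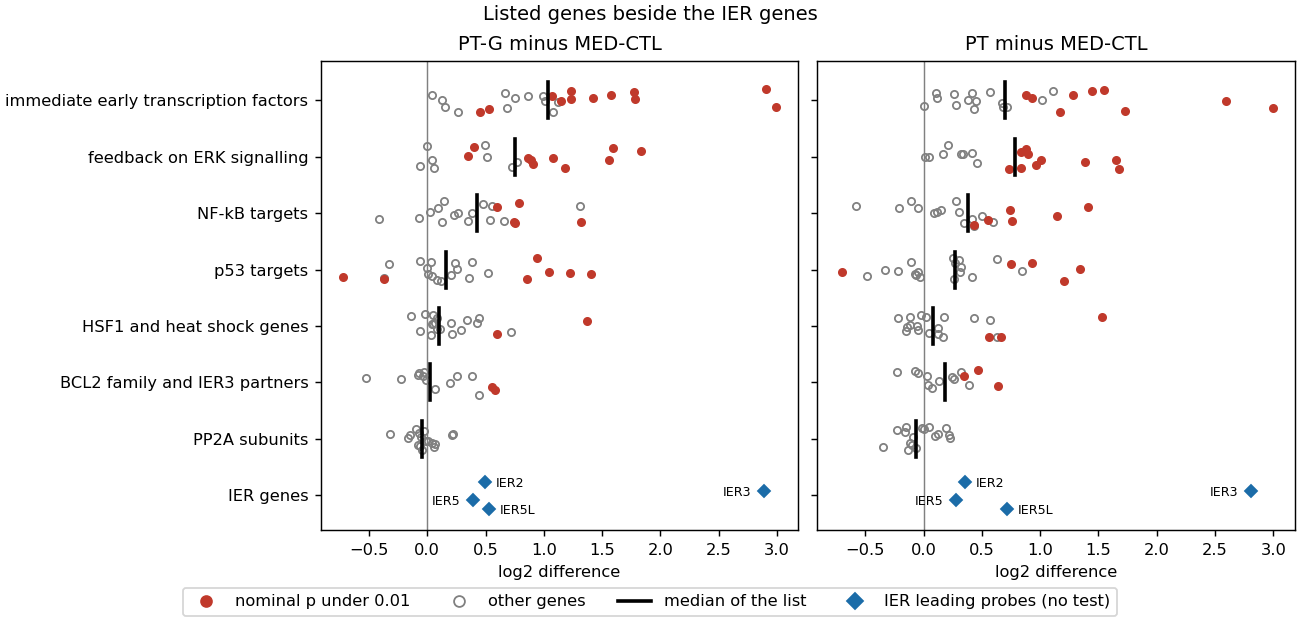
Log2 difference from MED-CTL (horizontal axes) of the genes of 7 lists and of the 4 leading IER probes, for PT-G and PT. Each circle is a gene, filled at a nominal p under 0.01 in limma, black lines are list medians and diamonds are the IER genes, which were not tested. IER3 lies at 2.89 and 2.81, near the highest immediate early factors EGR4 and EGR3, and the other IER genes lie between 0.28 and 0.71.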

How the data were processed

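RNA of 16 Caco-2 cultures was hybridised on Agilent one-colour arrays (Feature Extraction 9.5.3.1). The authors' image analysis gave foreground and background intensity per spot, without normalization between arrays, and other columns that mark control, outlier and well detected spots. The deposited log2 values differ from quantile-normalized median intensity by at most 5e-09. The main values here are log2 median foreground intensities, quantile-normalized over 43376 spots other than the 1639 controls without background correction, with 1774 outlier spots left out. Of 41000 probes, 40982 with at least 3 unmarked arrays per condition were fitted in 1 limma 3.58.1 model (R 4.3.3) of 4 conditions, with moderated 2-sided tests and Benjamini-Hochberg adjustment over all probes. The methods' nominal p under 0.01 was the threshold, with an adjusted p under 0.05 beside it. Precision is limited by the number of arrays. Every member probe is named, the brightest of a gene leading. In each list up to 3 genes of largest difference past the nominal threshold are named for each digest, with fixed partners, of which not all are reported here, and the 4 genes most alike to each member. The members and lists were chosen with earlier results of these data known.

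A run is the date shared by 4 arrays. MED-CTL replicate 2 belongs to run 1 and replicate 1 to run 2, whereas the other numbers equal the run. Same-numbered arrays deviated together from their group means in all 4 pairs for PT-G with MED-CTL (r from 0.395 to 0.858) and p31-43 with MED-CTL (0.263 to 0.708), in 2 of 4 for PT with MED-CTL and in 3 of 4 for PT-G with PT. Arrays of the same run gave 0.625 to 0.858, 0.536 to 0.708, 3 of 4 and 3 of 4. The numbers were thus read as a pairing, from the data, in the first 2 comparisons. Alternatives were processed signal scaled to its 75th percentile, normexp (offset 50), mean foreground, median scaling, the deposited table, a filter on dim probes, spots tested singly, marked spots kept, replicate, run or slide as a block, array weights (statmod 1.5.0), 2-group fits, a trend of variance with intensity and omission of each array in turn. Leaving out slide 3 was added after seeing the data. The fit was tested on simulated data with noise drawn independently for each array. These data held no runs or slides, so they cannot show how the fit behaves when arrays deviate together.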

Additional observations from a re-analysis of the deposited data

How the results depend on the processing

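The sign of the difference from MED-CTL was the same under each of 31 alternatives for the leading probes of all 4 genes with PT-G and with PT, and each value moved by less than the SD between replicates. For IER3 it lay between 2.74 and 3.02 for PT-G and between 2.66 and 2.93 for PT. The later-minus-earlier difference of the leading IER5 probe was −0.27 on processed signal and −0.32 after median scaling, past the threshold on neither, and that of IER2 was −0.28 without slide 3, past it. The number of list genes past the nominal threshold, 38 for PT-G, 36 for PT and 0 for the other comparisons, became 60, 59 and 2 (p31-43) with the run as a block and 65, 58, 5 (p31-43) and 1 (PT-G minus PT) with the slide as a block. With array weights it was 1 for p31-43 and 1 for PT-G minus PT. With the replicate number as a block it was 56 for PT-G, 54 for PT and 2 for p31-43. Leaving out single arrays gave 0 to 2 for p31-43, the 2 without MED-CTL replicate 4. Over all probes, the 387 for PT-G and 336 for PT at an adjusted p under 0.05 ranged from 38 to 3814 and from 21 to 2857. The causes were not tested. IER5L was the dimmest member, and precision is limited by 4 arrays a condition.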
